A study of Rattus norvegicus with 21 samples.

Results

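Thyroid hormone handling was followed through 6 genes in rat liver: the plasma carriers Serpina7 and Ttr, the membrane transporter Slc16a10, the deiodinase Dio1 and the nuclear receptors Thra and Thrb. They were taken by symbol from the array's platform annotation. All 6 had at least 1 probe set naming that gene alone. They account for 11 of the 31042 probe sets tested and for 6 of 14217 genes. Where a gene had several probe sets, the one with the highest mean signal over all arrays represents it, and the others are given beside it. Male Harlan Sprague Dawley rats received BPDP (tert-butylphenyl diphenyl phosphate, an organophosphate ester with aryl groups) in corn oil by oral gavage once a day for 4 days, and the left liver lobe was sampled on day 5. There were 6 vehicle arrays (corn oil alone) and 3 arrays each at 64.6, 129.2, 258.1, 516.2 and 1032.5 mg/kg, 21 in all. The treatment protocol speaks of 5 vehicle rats although 6 vehicle arrays are listed. Whether every array is a separate animal is therefore not settled, and the p-values rest on the spread between arrays, not between known animals. Vehicle replicate 6 stood somewhat apart, with a mean correlation of 0.989 to the rest of its group where the other vehicle arrays had 0.993, and results that rest on it are also given without it.

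Thyroid hormone circulates mainly as thyroxine (T4) bound to carriers made in the liver. It enters cells through transporters, and the deiodinases convert T4 to the active hormone triiodothyronine (T3) or to inactive products. T3 binds the receptors encoded by Thra and Thrb, which pair with retinoid X receptors on DNA, and Thrb is the main form in liver. The liver also clears the hormone by glucuronidation, sulfation and biliary export.

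All levels below are log2 signals, and a change is the mean log2 signal at a dose minus the vehicle mean. Tests are limma's, with p-values adjusted for the number of probe sets tested (Benjamini-Hochberg) and a threshold of 0.05. limma draws the spread of each probe set toward a value common to all probe sets. At 1032.5 mg/kg, 2 of the 6 genes fell, Serpina7 and Dio1, and none rose. Over all genes 8.95% passed the threshold at this dose, 4.14% of all genes as lower and 4.81% as higher. None of the 6 passed at 64.6, 129.2, 258.1 or 516.2 mg/kg, where 0.387%, 0.521%, 3.56% and 8.93% of all genes passed. At unadjusted p under 0.05 the counts at these 4 doses were 1, 0, 1 and 2 of 6, and at 1032.5 mg/kg it was 3 of 6. The median change of the 6 genes was 0.02, -0.02, -0.02, -0.14 and -0.24 from the lowest to the highest dose, beside a median over all genes between -0.01 and 0.01.

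**Figure D1:**
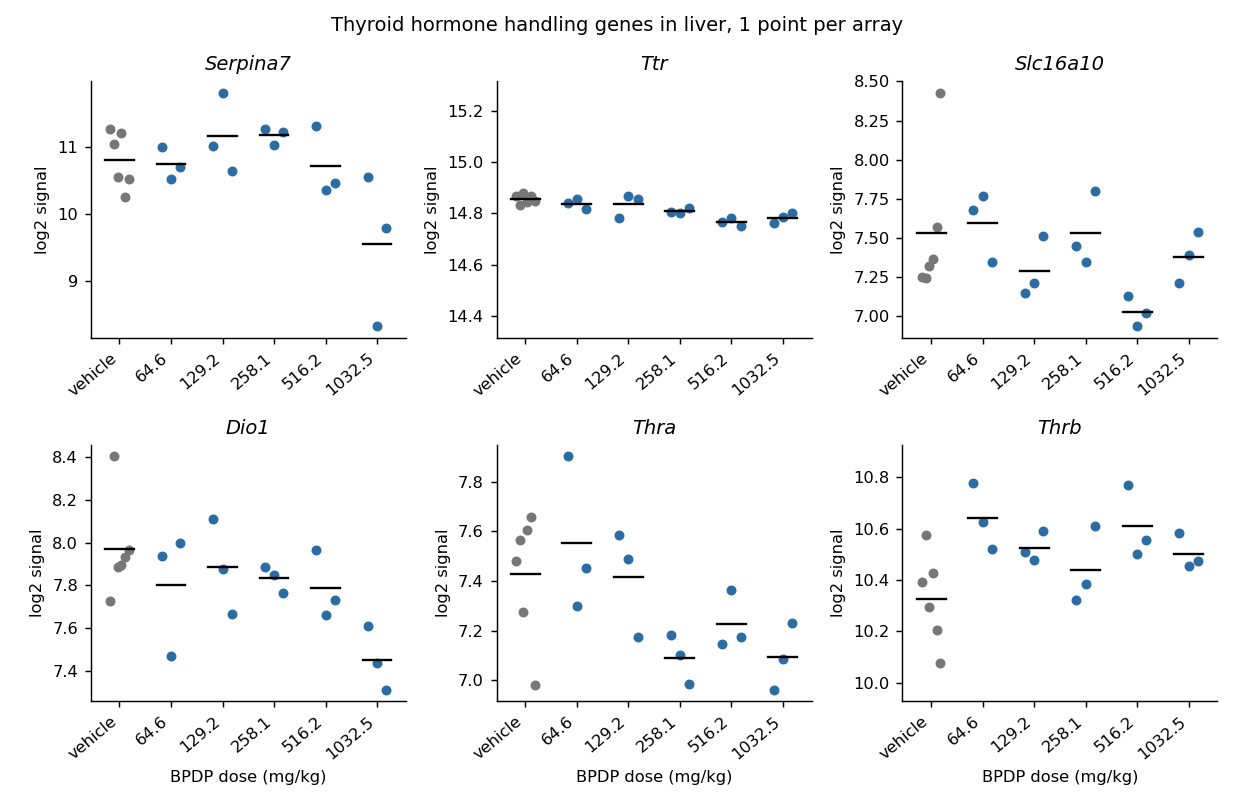
Log2 signal (vertical axis, a scale of its own in each panel) of the 6 genes against BPDP dose in mg/kg, with 1 point per array and a bar at the group mean. The 3 Dio1 points at 1032.5 mg/kg, from 7.31 to 7.61, lie below all 6 vehicle points, and the Serpina7 points at that dose spread from 8.32 to 10.55.

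Serpina7 and Dio1, the genes that fell at the top dose, differ in the letters around their start sites. Their RefSeq promoter windows on assembly GRCr8, from 250 bases before to 50 bases after the annotated start, are shown 5' to 3' along the gene, in lower case with motif matches in capitals. The Dio1 window is chr5:127319735-127320034 on the minus strand, and the Serpina7 window is chrX:107457632-107457931 on the minus strand.
Dio1: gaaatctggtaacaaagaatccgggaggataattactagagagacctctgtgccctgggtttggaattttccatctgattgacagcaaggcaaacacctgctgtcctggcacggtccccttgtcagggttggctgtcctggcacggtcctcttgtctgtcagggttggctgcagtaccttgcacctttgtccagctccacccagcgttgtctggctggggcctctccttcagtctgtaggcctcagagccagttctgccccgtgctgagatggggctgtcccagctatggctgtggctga
Serpina7: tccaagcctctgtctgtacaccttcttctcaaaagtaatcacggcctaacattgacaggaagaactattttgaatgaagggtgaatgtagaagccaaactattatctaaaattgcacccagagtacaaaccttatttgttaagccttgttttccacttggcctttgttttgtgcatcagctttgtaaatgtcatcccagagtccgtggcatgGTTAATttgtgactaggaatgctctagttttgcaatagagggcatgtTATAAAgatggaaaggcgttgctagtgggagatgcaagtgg
In the Serpina7 window the capitals mark GTTAAT, the core recognised by the liver factor HNF1, starting 38 bases before the start, and TATAAA, a core promoter element, starting 9 bases after it. The Dio1 window held none of the motifs searched. Those were AGGTCA, the hexamer recognised by thyroid hormone receptors, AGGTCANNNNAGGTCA, its direct repeat with a spacer, GTTAAT and TATAAA, each on both strands. A match to the repeat also counts as a match to the hexamer. Of 33469 RefSeq rat promoter windows of the same length, 16.2% held AGGTCA, 7.45% held GTTAAT, 14.2% held TATAAA and 0.00598%, or 2 windows, held the repeat. All 6 genes had at least 1 window, 7 in all. Among the other 4 genes, Slc16a10 held AGGTCA starting 241 bases before its start, Thrb held GTTAAT 38 bases before its start on the opposite strand, and the Thra and Ttr windows held none. A match is a description of these letters and not a measured binding site.

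Serpina7 encodes thyroxine-binding globulin, the carrier with the highest affinity for T4. The 6 vehicle arrays ranged from 10.26 to 11.27 with a median of 10.81. At 64.6 mg/kg the arrays read 11.01, 10.52 and 10.71, and at 129.2 mg/kg they read 11.02, 11.82 and 10.64. The levels at both doses overlapped the vehicle arrays. At 258.1 mg/kg the 3 levels were 11.27, 11.03 and 11.23, and at 516.2 mg/kg they were 11.31, 10.37 and 10.46. At the top dose they were 10.55, 8.32 and 9.79, so that 2 of 3 arrays lay below every vehicle array and replicate 1 lay among them.

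The Serpina7 mean went from 10.82 ± 0.42 (SD, n = 6) in the vehicle group to 9.56 ± 1.13 (SD, n = 3) at the top dose. This was a fall by 1.26 on the log2 scale (SE 0.35), or 2.40-fold, with a 95% interval from -2.0 to -0.52 and an adjusted p of 0.0368. At the 4 lower doses the changes were -0.07, 0.35, 0.36 and -0.10, with adjusted p from 0.798 to 0.986. Replicate 2 at the top dose carried much of the fall: without it the change was -0.64 with an adjusted p of 0.322. The call was also lost without top-dose replicate 3 (adjusted p 0.0681) and without vehicle replicates 1, 2 or 4 (0.0736, 0.0679 and 0.0698). With all arrays of the groups kept, it was lost in a fit of only the groups compared (SE 0.39, adjusted p 0.0984). It was lost with an intensity trend and robust variance too (adjusted p 0.0729). The change against 516.2 mg/kg was -1.16 (SE 0.41, adjusted p 0.415). In that comparison of the top pair of doses none of the 6 genes was called. The share called over all genes was 0%, where 9.30% of all probe sets had an unadjusted p under 0.05 and 2 of the 6 genes did.

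Ttr encodes transthyretin, the main T4 carrier of rodent plasma and the partner of retinol-binding protein. Its signal was among the highest on the arrays, whose top value was 15.35, and differed little between groups. The vehicle arrays ranged from 14.83 to 14.88. The arrays read 14.84, 14.85 and 14.82 at 64.6 mg/kg, and 14.78, 14.87 and 14.85 at 129.2 mg/kg. At 258.1, 516.2 and 1032.5 mg/kg they ranged from 14.80 to 14.82, from 14.75 to 14.78 and from 14.76 to 14.80. Every array of those 3 groups lay below every vehicle array. That held for 3.52%, 5.25% and 7.08% of all genes at the 3 doses. The changes from the lowest to the highest dose were -0.02, -0.02, -0.05, -0.09 and -0.07, none of them called, and the 95% interval at 1032.5 mg/kg ran from -0.18 to 0.04 (adjusted p 0.533). The SE of these changes was 0.053, larger than the SD of any group (0.0095 to 0.046), because limma draws so tight a spread toward the common value. The interval and the p-values are therefore not set by the spread of Ttr alone. A signal this near the top of the scale can understate a change, and that was not tested.

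Slc16a10 encodes a transporter of aromatic amino acids that also carries T3 and T4 across the cell membrane. The vehicle arrays ranged from 7.24 to 8.43 with a median of 7.34, and replicate 6 stood above the other vehicle arrays, which reached 7.57. The levels were 7.68, 7.77 and 7.35 at 64.6 mg/kg, 7.15, 7.21 and 7.51 at 129.2 mg/kg, and 7.45, 7.35 and 7.80 at 258.1 mg/kg. All 3 groups overlapped the vehicle arrays. At 516.2 mg/kg the levels were 7.13, 6.94 and 7.02, below every vehicle array, as 5.25% of all genes were at that dose. At the top dose they were 7.21, 7.39 and 7.54, within the vehicle range but for 1 array. The change at 516.2 mg/kg was -0.50 (SE 0.19, 95% interval -0.90 to -0.10, adjusted p 0.138), and without vehicle replicate 6 it was -0.32 (adjusted p 0.121). For 1032.5 mg/kg it was -0.15 (95% interval -0.55 to 0.26, adjusted p 0.777).

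Dio1 encodes the type 1 deiodinase, a selenoenzyme of liver and kidney that both activates T4 and clears inactive iodothyronines, and whose own gene is raised by T3. The vehicle arrays ranged from 7.73 to 8.40 with a median of 7.91. The levels were 7.93, 7.47 and 8.0 at 64.6 mg/kg and 8.11, 7.87 and 7.67 at 129.2 mg/kg. They were 7.89, 7.85 and 7.76 at 258.1 mg/kg and 7.97, 7.66 and 7.73 at 516.2 mg/kg, so that the 4 lower doses overlapped the vehicle arrays. At the top dose they were 7.61, 7.44 and 7.31, all 3 below all 6 vehicle arrays, as 7.08% of all genes were.

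The Dio1 mean went from 7.97 ± 0.23 (SD, n = 6) in the vehicle group to 7.45 ± 0.15 (SD, n = 3) at the top dose. It fell by 0.52 on the log2 scale (SE 0.14), or 1.43-fold, with a 95% interval from -0.80 to -0.23 and an adjusted p of 0.0247. The changes at the lower doses were -0.17, -0.08, -0.14 and -0.18, with adjusted p from 0.477 to 0.963. Without top-dose replicate 2 the change was -0.51 (adjusted p 0.0951) and without replicate 3 it was -0.45 (adjusted p 0.133), so the call needed both arrays while the size did not. The call held when each vehicle array was left out, with adjusted p between 0.0177 and 0.0412. The difference from 516.2 mg/kg was -0.34 (adjusted p 0.524).

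**Figure D2:**
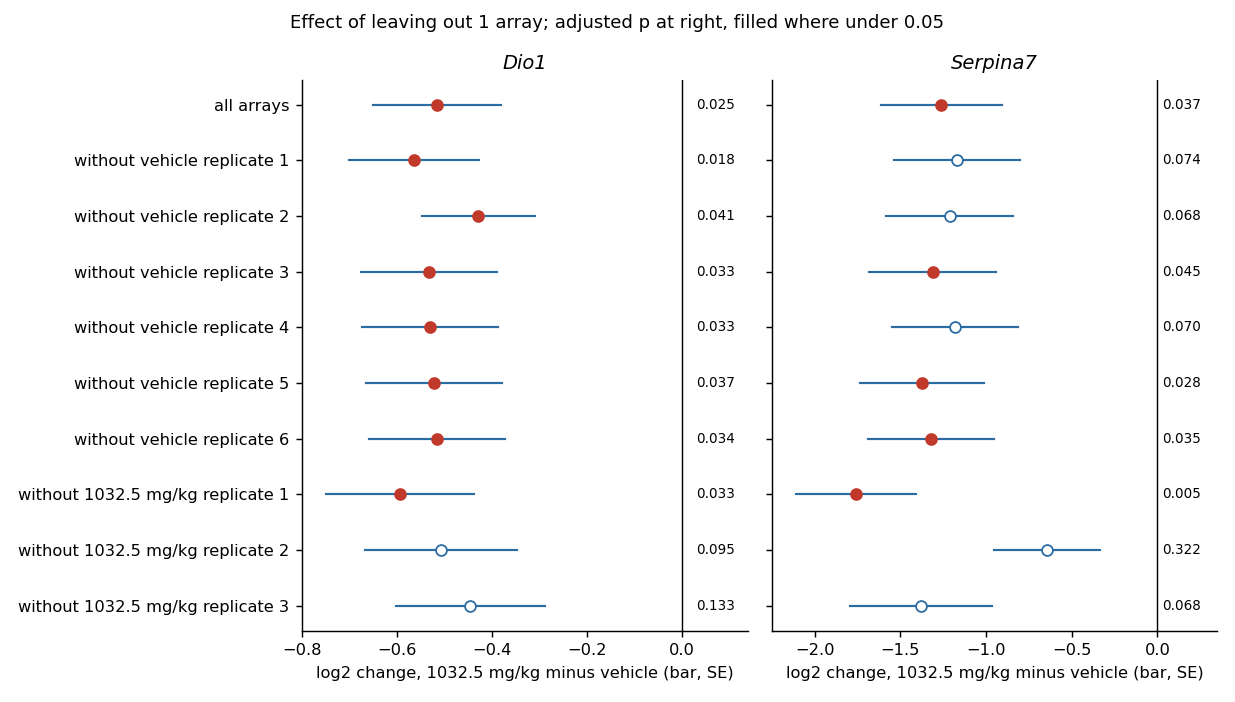
Log2 change of Dio1 and Serpina7 at 1032.5 mg/kg against vehicle (horizontal axis, bars 1 SE) with all arrays and with each array of the 2 groups left out, and the adjusted p at the right of each row. Filled points are under 0.05. Without top-dose replicate 2 the Serpina7 change is -0.64, and every Dio1 change lies between -0.59 and -0.43.

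A control measure of RNA integrity varied within every group. The signal of the 5' control probe sets of Gapdh and beta-actin minus that of the 3' ones was -1.95 ± 0.29 (SD, n = 6) in the vehicle group and -1.54 ± 0.37 (SD, n = 3) at 1032.5 mg/kg. At that dose replicate 1 (-1.96) lay within the vehicle range of -2.40 to -1.68, and replicates 2 and 3 (-1.37 and -1.28) lay above it. Replicates 2 and 3 also had lower Dio1 (7.44 and 7.31) and Serpina7 (8.32 and 9.79) signals than replicate 1 (7.61 and 10.55). The mean was -2.30 ± 0.64 (SD, n = 3) at 516.2 mg/kg, and the arrays at 258.1 mg/kg ranged from -3.10 to -1.35. With this measure as a covariate the Dio1 change was -0.48 (adjusted p 0.0518) and the Serpina7 change -1.15 (adjusted p 0.0736). In bulk liver, fewer cells of a type and less RNA per cell cannot be told apart. The counts of markers called at 1032.5 mg/kg stand beside 4.14% of all genes called lower and 4.81% called higher. The mean log2 signal of the 8 measured hepatocyte markers of 9 listed, all high on the arrays, ranged from 14.05 to 14.13 in the vehicle group and from 13.96 to 14.04 at 1032.5 mg/kg, with 1 of 8 called lower. Kupffer cell markers, 8 of 11 measured, ranged from 9.56 to 10.07 and from 9.09 to 9.46, with 2 called lower. Stellate cell and fibroblast markers, 11 of 11 measured, ranged from 7.58 to 8.05 and from 7.28 to 7.40, with 4 called lower. Red cell markers, 3 of 6 measured, ranged from 8.64 to 9.65 and from 7.46 to 8.19, with 2 called lower. Lymphocyte markers, 9 of 10 measured and 5 of them below the lower quartile of gene means (5.93), ranged from 5.98 to 6.32 and from 5.78 to 5.86, with 2 called lower. Endothelial markers, 7 of 10 measured, ranged from 9.20 to 9.96 and from 9.36 to 9.57, with none called. Cholangiocyte markers, 5 of 6 measured, had 1 called higher, with ranges from 6.33 to 6.73 and from 6.52 to 6.65. Neutrophil markers, 4 of 7 measured and 3 of them below that quartile, ranged from 5.44 to 6.92 and from 5.22 to 5.42, with none called. The 6.92 was vehicle replicate 6, the array that also had the highest Slc16a10 signal (8.43), and the other vehicle arrays reached 5.74. Markers of choroid plexus and islet, other tissues with high Ttr, ranged from 6.11 to 6.27 and from 6.02 to 6.29, with none of 5 called. The part of these levels in the falls of Dio1 and Serpina7 was not tested.

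Thra encodes the receptor TR alpha and, by splicing, a form that does not bind T3. Its representing probe set, 1370691_a_at, read 6.98 to 7.66 on the vehicle arrays with a mean of 7.43 ± 0.26 (SD, n = 6). The levels were 7.90, 7.30 and 7.45 at 64.6 mg/kg and 7.59, 7.49 and 7.18 at 129.2 mg/kg. At 258.1 mg/kg they were 7.18, 7.10 and 6.99, at 516.2 mg/kg 7.15, 7.37 and 7.18, and at 1032.5 mg/kg 6.96, 7.09 and 7.23. All 5 groups overlapped the vehicle arrays, in which replicate 6 at 6.98 was the lowest. The changes were 0.12, -0.01, -0.34, -0.20 and -0.34 with adjusted p from 0.202 to 0.996. At the top dose the 95% interval ran from -0.63 to -0.04, and without vehicle replicate 6 the change was -0.42 with an adjusted p of 0.0467.

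The other Thra probe sets gave other calls, and the difference between probe sets was not tested. Probe set 1367726_at read 7.35 ± 0.12 (SD, n = 6) on the vehicle arrays and 6.87, 7.10 and 6.90 at 516.2 mg/kg. These lay below every vehicle array, as 5.25% of all genes did at that dose. There it fell by 0.39 on the log2 scale (SE 0.10), or 1.31-fold, with an adjusted p of 0.0260, where 6.02% of all probe sets were called. Its changes at 64.6, 129.2, 258.1 and 1032.5 mg/kg were -0.14, -0.25, -0.20 and -0.18, none of them called, and its slope over the dose steps was -0.053 (adjusted p 0.0681). Probe set 1380518_s_at was dim, at 3.16 ± 0.078 (SD, n = 6) in the vehicle group, below the lower quartile of gene means, and none of its changes was called.

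Thra overlaps Nr1d1, a clock repressor of the nuclear receptor family, on the opposite strand in RefSeq. Nr1d1 was higher at every dose than in the vehicle group (6.44 ± 0.41, SD, n = 6). It read 9.26 ± 0.34 (SD, n = 3) at 64.6 mg/kg and 8.56 ± 0.28 (SD, n = 3) at 1032.5 mg/kg. The differences were 7.02-fold (adjusted p 2.74e-06) and 4.32-fold (adjusted p 1.44e-05). Among the dosed arrays alone its slope was -0.16 per step and not called (adjusted p 0.148). A difference from every dose can be one of the vehicle group alone, and that was not tested. At 64.6 mg/kg, where the Nr1d1 difference was greatest, Thra 1370691_a_at changed by 0.12 (adjusted p 0.905) and Thra 1367726_at by -0.14 (adjusted p 0.797). At 516.2 mg/kg their changes were -0.20 and -0.39, of which only the latter was called (adjusted p 0.0260). Whether the Nr1d1 difference bears on the Thra signals was not tested.

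**Figure D3:**
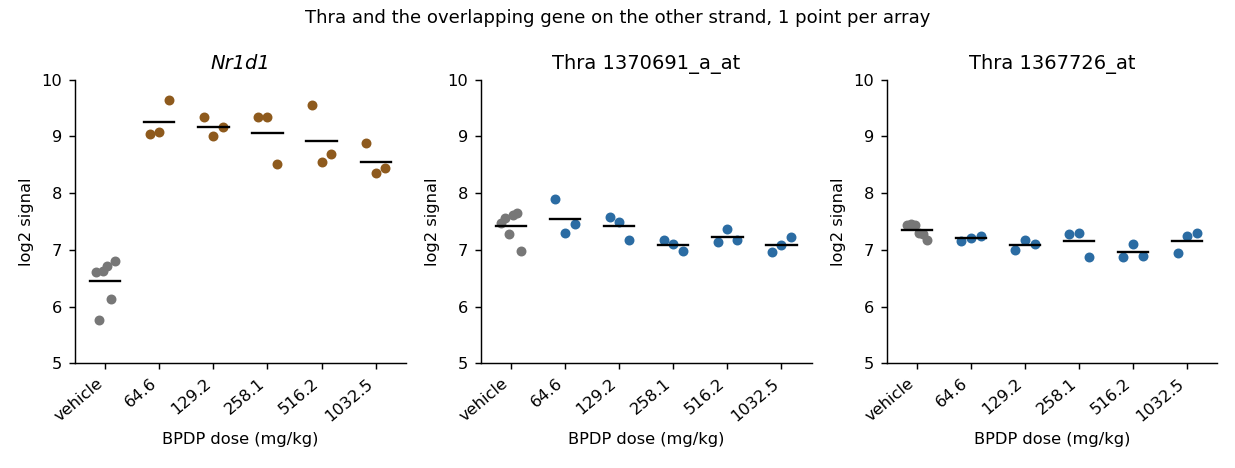
Log2 signal of Nr1d1 and of the 2 brighter Thra probe sets against BPDP dose in mg/kg on a shared vertical scale, with 1 point per array and a bar at the group mean. Nr1d1 goes from a mean of 6.44 to between 8.56 and 9.26 at the 5 doses. The group means of the Thra probe sets lie between 6.96 (1367726_at at 516.2 mg/kg) and 7.55 (1370691_a_at at 64.6 mg/kg).

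Thrb encodes the receptor TR beta, and its representing probe set, 1394456_at, was the brightest of the 7 receptor probe sets, which compares probes and not transcript amounts. The vehicle arrays ranged from 10.08 to 10.58 with a mean of 10.33 ± 0.18 (SD, n = 6). The levels were 10.78, 10.63 and 10.52 at 64.6 mg/kg, 10.51, 10.48 and 10.59 at 129.2 mg/kg and 10.32, 10.39 and 10.61 at 258.1 mg/kg. They were 10.77, 10.50 and 10.56 at 516.2 mg/kg and 10.58, 10.45 and 10.47 at 1032.5 mg/kg, and all 5 groups overlapped the vehicle arrays. The changes were 0.31, 0.20, 0.11, 0.28 and 0.18, none of them called, with the lowest adjusted p at 516.2 mg/kg (0.101). At 1032.5 mg/kg the 95% interval was -0.03 to 0.38 (adjusted p 0.392). Of the other probe sets, 1378457_at changed by 0.24, 0.33, 0.17, 0.04 and 0.31, while 1370474_at (5.28 ± 0.41, SD, n = 6, in the vehicle group) and 1387983_at (4.23 ± 0.18, SD, n = 6) were below the lower quartile of gene means. None of them was called at any dose.

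**Figure D4:**
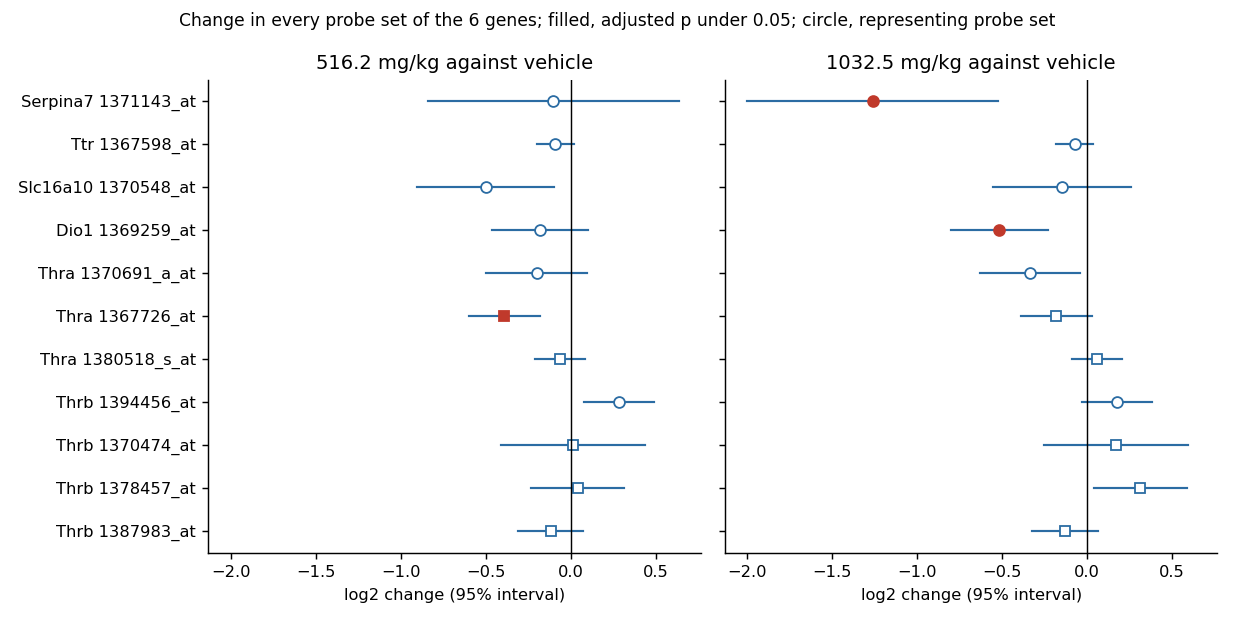
Log2 change against vehicle with its 95% interval (horizontal axis) for the 11 probe sets of the 6 genes at 516.2 and 1032.5 mg/kg, circles for the representing probe set and squares for the others. Filled symbols have an adjusted p under 0.05: Thra 1367726_at at 516.2 mg/kg (-0.39), and Serpina7 (-1.26) and Dio1 (-0.52) at 1032.5 mg/kg.

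The receptors were also set against each other on the same array. Neither was called alone at the top dose (limma, adjusted p 0.202 for Thra and 0.392 for Thrb). The Thra signal minus the Thrb signal of the representing probe sets was -2.90 ± 0.20 (SD, n = 6) in the vehicle group, from -3.10 to -2.55, and -3.41 ± 0.19 (SD, n = 3) at 1032.5 mg/kg, from -3.62 to -3.24. The groups did not overlap, and how often other pairs of genes do so was not counted. The difference was -0.51, with a two-sided exact permutation p of 0.0238, the smallest that 84 regroupings can give. It kept its side of 0.05 with each vehicle array left out, while with only 2 top-dose arrays the smallest p possible is 0.0714. It depends on the probe sets: only with Thra 1367726_at in place of the representing one did it stay under 0.05 (-0.36, exact permutation p 0.0238). Every other pairing missed 0.05. With Thrb 1378457_at the difference was -0.65 (exact permutation p 0.0714). With the dim probe sets of both genes, 1380518_s_at and 1387983_at, it was 0.19 (exact permutation p 0.286).

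Over the ordered doses, with the vehicle as step 0 and the doses as steps 1 to 5, 2 of the 6 genes had a slope past the threshold, both downward, where 15% of all genes did and 6.25% of all genes did downward. These were Dio1, with -0.08 per step on the log2 scale (SE 0.023, adjusted p 0.0396), and Thra, also with -0.08 per step (SE 0.025, adjusted p 0.0466). Both calls were fragile. The Dio1 call remained in 13 of the 21 fits that each left out 1 array (adjusted p 0.0135 to 0.116) and was lost without vehicle replicate 2, 4 or 5, replicate 3 at 64.6 mg/kg, replicate 2 at 516.2 mg/kg or any top-dose array. The Thra call remained in 7 of those fits (adjusted p 0.00587 to 0.116), those without vehicle replicate 3 or 6, replicate 1 at 64.6 mg/kg, replicate 1 or 3 at 129.2 mg/kg, replicate 2 at 516.2 mg/kg or top-dose replicate 3. Serpina7 had a slope of -0.15 (adjusted p 0.216) and Ttr one of -0.02 (adjusted p 0.210). The dose scale decided which genes were called: with the dose in mg/kg the Serpina7 slope was called (adjusted p 0.0325), the Thra slope was not (adjusted p 0.106), and Dio1 was called on both scales (adjusted p 0.0218 in mg/kg). Among the 15 dosed arrays alone none of the 6 genes was called, with 3.41% of all genes called, 3 of 6 at unadjusted p under 0.05 and a lowest adjusted p of 0.102. In the F test over the 5 doses none was called either, with 6.71% of all genes called, 4 of 6 at unadjusted p under 0.05 and a lowest adjusted p of 0.111.

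The genes around these 6 were read from 7 lists, whose counts at 1032.5 mg/kg stand beside 4.81% of all genes called higher and 4.14% called lower. Lost calls are given mainly for left-out arrays, and several of these calls were also lost under other alternatives. Of 9 measured transporters of 10 listed, 3 fell and 1 rose, with a median change of -0.21. Slc17a4, a solute carrier that takes up T3 and T4, went from 9.33 ± 0.14 (SD, n = 6) to 8.29 ± 0.17 (SD, n = 3), a 2.06-fold fall (adjusted p 7.94e-06). Its change at 516.2 mg/kg was -0.52 (adjusted p 0.0114), and it fell with dose among the dosed arrays too, by 0.23 per step (adjusted p 0.00260). Slco1a1, an organic anion transporter, fell 1.23-fold (adjusted p 0.0266), and Slc7a8, an amino acid transporter subunit, fell 1.28-fold (adjusted p 0.0450). Slc3a2, the heavy chain that pairs with such subunits, rose 1.59-fold (adjusted p 0.0195), a call lost without top-dose replicate 1 or 2 (adjusted p 0.0947 and 0.168). That call was also lost in a fit of only the groups compared (adjusted p 0.0576). The Slco1a1 call was lost without vehicle replicate 1 or top-dose replicate 2 or 3, and the Slc7a8 call without vehicle replicates 1 to 4, any top-dose array or 4 arrays of other doses, with adjusted p up to 0.168 and 0.165.

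Of 6 measured binding proteins, including the retinol partner of Ttr, 1 fell and none rose, with a median change near 0. Crym, the crystallin that binds T3 in the cytosol, went from 10.86 ± 0.12 (SD, n = 6) to 9.83 ± 0.26 (SD, n = 3), a 2.04-fold fall (adjusted p 9.83e-05). Alb (15.34 in the vehicle group) and Rbp4 (14.66) changed by less than 0.01, at the top of the scale like Ttr. Of the 9 other serpins of clade A, the family of Serpina7, 2 fell and none rose, with a median of -0.14. Serpina4, the kallikrein inhibitor kallistatin, fell 1.51-fold (adjusted p 6.30e-05). Serpina11 fell 1.33-fold (adjusted p 0.0372), but not past the threshold when vehicle replicate 1, 2, 3, 4 or 5 or top-dose replicate 2 or 3 was left out (adjusted p up to 0.194). Slc17a4, Crym and Serpina4 were past the threshold under all 30 alternatives tried.

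Of 11 measured genes of conjugation and export of 17 listed, 4 rose and 1 fell at 1032.5 mg/kg, with a median of 0.16, where 4.81% of all genes were called higher and 4.14% lower. Abcc3 and Abcb1a, export pumps, rose 8.98-fold and 3.13-fold (adjusted p 3.30e-07 and 2.60e-05), and Ugt2b1, a glucuronosyltransferase, rose 2.23-fold (adjusted p 3.17e-05). Abcc2, another export pump, rose too, with a log2 change of 0.58 (adjusted p 0.00993), a call lost without top-dose replicate 1 or 2 (adjusted p 0.0965 and 0.0864). That call was also lost with the replicate number as a block (adjusted p 0.0505). The fall was in Sult1c3, a sulfotransferase, at 1.59-fold (adjusted p 0.000294). The Ugt1a enzymes were not analysed here. Of the 13 other deiodinases and selenoprotein genes, Txnrd1, thioredoxin reductase, rose 1.44-fold (adjusted p 0.0154) and Gpx1, glutathione peroxidase, fell by 0.23 on the log2 scale (adjusted p 0.0407). Dio2, the other activating deiodinase, was dim at 3.92 in the vehicle group, and Dio3, the inactivating one, read 6.18. Neither was called. The Txnrd1 call was lost without top-dose replicate 2 (adjusted p 0.156), and the Gpx1 call without any 1 of vehicle replicates 1 to 5, the top-dose arrays or replicate 1 at 258.1 mg/kg (adjusted p up to 0.157). With all arrays of the groups kept, the Txnrd1 call was lost with only the groups compared (adjusted p 0.0807) and with the replicate number as a block (adjusted p 0.0582).

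Among 17 measured genes that T3 is known to raise in liver, 3 rose and 1 fell at 1032.5 mg/kg, with a median of -0.03, again beside 4.81% of all genes higher and 4.14% lower. Malic enzyme Me1 rose 3.47-fold (adjusted p 0.000103), the transcription factor Klf9 1.79-fold (adjusted p 0.00675) and the carnitine carrier Slc25a20 1.63-fold (adjusted p 0.00298), while the pyruvate kinase Pklr fell 2.32-fold (adjusted p 5.26e-05). Thrsp, a classical T3-responsive gene, changed by 0.57 (adjusted p 0.282). Dio1, itself a gene of this kind, fell as described above. Of 17 measured receptor partners and cofactors, Nrip1, a corepressor of nuclear receptors, fell 1.42-fold (adjusted p 0.0403) and none rose. The Nrip1 call was lost without any 1 of vehicle replicates 1 to 4 or top-dose replicates 2 and 3 (adjusted p up to 0.221).

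**Figure D5:**
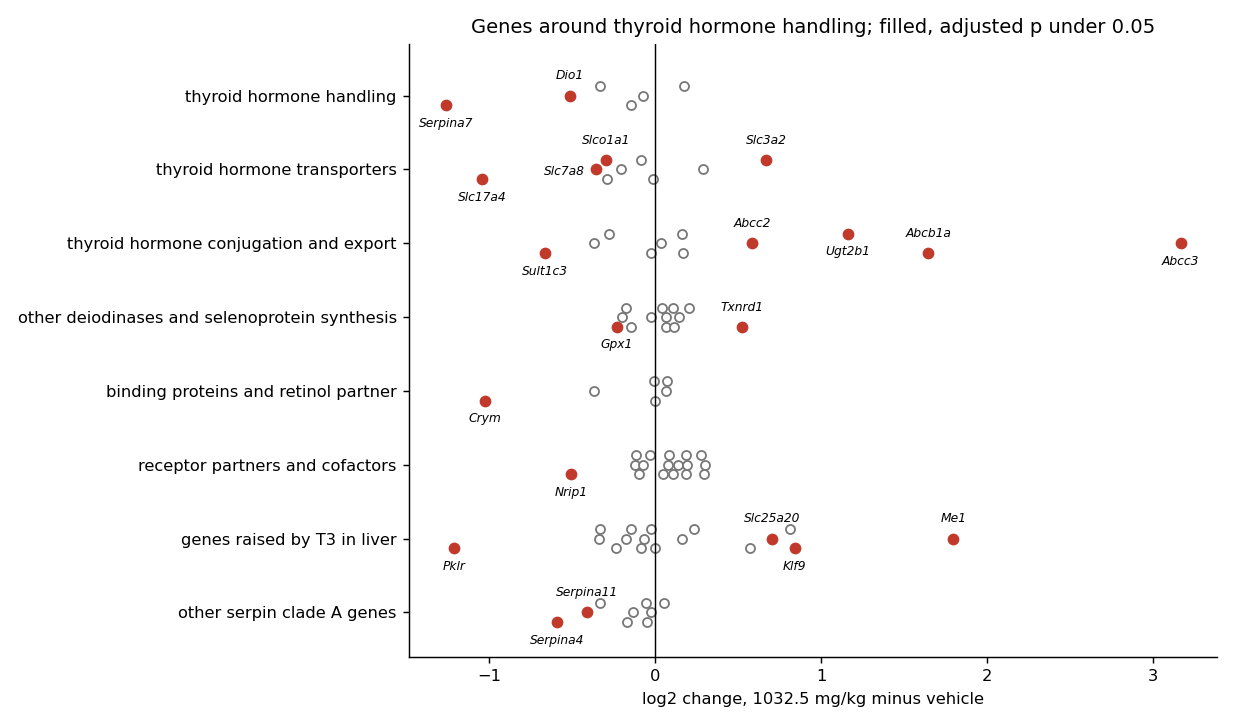
Log2 change at 1032.5 mg/kg against vehicle (horizontal axis) of every measured gene of the 6 and of the 7 surrounding lists, 1 point per gene, filled and named where the adjusted p is under 0.05. Serpina7, Slc17a4, Crym and Pklr lie near or beyond -1, and Abcc3 is the farthest to the right at 3.17.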

How the data were processed

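Rat liver RNA was measured on 21 Affymetrix rat expression arrays. The deposited values are log2 signals; the submitters' processing notes name RMA, with its software and settings not given in the sources used here. They were used as deposited. RMA draws all arrays to a common distribution, so changes are relative to other probe sets. There is no read depth in array data; 3 arrays per dose and 6 for the vehicle limit precision. Columns were matched to samples by label.

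After 57 controls were left out, 31042 probe sets were tested: 20826 naming 1 gene, 436 several and 9780 none. Symbols were updated against RefSeq (GRCr8). A further probe set naming Ttr together with other genes was not used. Arrays correlated at r from 0.984 to 0.995, none identical.

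limma 3.58.1 (R 4.3.3) fitted all 21 arrays with 6 group means. P-values are two-sided, adjusted over all probe sets, with a threshold of 0.05. A slope used the dose step. A log2 change of 0.5 was recovered for 50% and one of 1 for 100% of 50 probe sets each in data simulated for 1032.5 mg/kg over 31042 probe sets. The simulated noise was normal and independent between probe sets. Far fewer probe sets were changed than the 1908 called in the data at this dose, so these shares need not hold for the 6 genes. The 6 genes, the lists and the tests were chosen with earlier results of these data known. Named are all probe sets of the 6 genes, and up to 4 called genes per list with index genes given whatever their values. Genes most like each of the 6 were to be named only for members past the F test, of which there were none. Alternatives tried were a fit of only the groups compared, cyclic loess, median subtraction, array weights, a filter on dim probe sets, robust variances with an intensity trend, 1 probe set for each gene, the replicate number as a block, a 5' minus 3' covariate, other dose scales, other probe sets and each array left out.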

Additional observations from a re-analysis of the deposited data

Results flagged for a closer look

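In the vehicle group of 6 arrays, Dio1 read 8.40 in replicate 2, and the gap to the next array was 0.645 of the group's range, above Dixon's critical value of 0.625. Without that array the Dio1 change at 1032.5 mg/kg was -0.43 (limma, adjusted p 0.0412). Slc16a10 read 8.43 in vehicle replicate 6, with a gap of 0.722 of the range. Without it the Slc16a10 change at 516.2 mg/kg was -0.32 (limma, adjusted p 0.121). The vehicle groups of all 6 genes were looked at, and chance marks about 5% of such groups.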

How the results depend on the processing

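Of 1659 values of the 6 genes under alternatives, 1613 kept their direction and side of the threshold or changed sign with neither value called, 39 lost a call, 6 gained one and 1 reversed. That was the Thra slope, 0.0020 with probe set 1380518_s_at (adjusted p 0.948). At 1032.5 mg/kg the count of called genes was 1 of 6 with only the groups compared and 1 with an intensity trend and robust variance. In both fits Dio1 stayed called and Serpina7 did not. The count was 0 with the 5' minus 3' covariate, and 0 to 3 with each array left out. At 516.2 mg/kg it was 1 after median subtraction (Thrb, 0.33). The F test called 1 with array weights (Serpina7) and 0 to 1 with an array left out. The slope called 0 after median subtraction and 0 to 2 with an array left out. With the dose in mg/kg it still called 2, Serpina7 in place of Thra. With the replicate number as a block the top dose called 1 gene and the slope 1, and Dio1 at the top dose was -0.55 (adjusted p 0.0788). Numbers 4 to 6 occur only in the vehicle group, so that fit in effect compared the doses with vehicle replicates 1 to 3 alone. The lost Dio1 call thus comes with fewer vehicle arrays and cannot be read as an effect of pairing. Whether the replicate numbers pair the arrays is not settled. Deviations of arrays of the same number in different groups correlated at a median r of 0.01, from -0.28 to 0.39. For arrays of other numbers the median was -0.01, from -0.44 to 0.30. Of the 18 arrays numbered 1 to 3, 10 correlated best with an array of their own number. That is more than an even draw would give on average, but the excess was not tested. The Thra minus Thrb difference ranged from -0.59 to -0.41 with an array left out. By exact permutation it missed 0.05 with Thra 1367726_at against Thrb 1370474_at (-0.35), 1378457_at (-0.49) and 1387983_at (-0.051), with 1370691_a_at against 1370474_at (-0.51), 1378457_at (-0.65) and 1387983_at (-0.20), and with 1380518_s_at against 1370474_at (-0.11), 1378457_at (-0.25) and 1394456_at (-0.12), and reversed against 1387983_at (0.19). For values that moved, the cause was not tested beyond the fewer arrays or changed probe sets of the alternative itself. Signal near background limits 1380518_s_at, 1370474_at and 1387983_at, and signal near the top of the scale limits Ttr.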
